A study of Mus musculus with 4 samples.

Results

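The 38 genes described here encode the insulin and insulin-like growth factor (IGF) pathway, from its ligands and receptors through phosphoinositide 3-kinase (PI3K) and the kinase AKT to the growth regulator mTOR. They were chosen by name and all 38 matched the RefSeq gene table, out of 21631 protein-coding genes on chromosomes 1 to 19 and X. Binding of the glucocorticoid receptor (GR) near them was read from peak lists made by chromatin immunoprecipitation and sequencing. A gene was counted as having a site when the centre of a listed peak fell in the gene or no more than 25 kb away.

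The cells were 33AP1C9, a mouse line derived from C127 mammary epithelial cells, carrying integrated copies of an MMTV reporter with PP7 sites and expressing the GFP-tagged coat protein that binds them. Every group shared this background and was held in charcoal-stripped serum before treatment. The groups were untreated cells (0 h) and cells given 600 nM corticosterone for 1 h or for 12 h, with 1 library each, so no replicate check was possible. The libraries held 79203826, 90556119 and 97749688 tags and listed 1, 5638 and 2883 peaks. The labels give a GR antibody mixture in which the catalogue number of 1 antibody climbs by an equal step from sample to sample, so the numbers may be an entry error. If the antibodies did differ, their part cannot be told apart from time. Peak lists carry no expression values, so the mammary identity of the cells could not be checked against markers.

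In this pathway, an occupied insulin or IGF receptor phosphorylates docking proteins such as IRS2, which recruit PI3K. The lipid made by PI3K activates AKT, which holds FOXO transcription factors out of the nucleus and releases mTOR complex 1 from inhibition by TSC1 and TSC2. Glucocorticoids are known in muscle and other tissues to oppose insulin action, and several brakes on the pathway are among the genes they are known to induce.

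At 1 h, 11 of the 38 members had a site, and at 12 h 7 did. The 11 were Phlpp1, Sesn1, Foxo3, Deptor, Mtor, Irs2, Grb10, Pik3r1, Pik3r2, Tsc1 and Rheb. The first 6 of these also had a site at 12 h, and Akt2 had one at 12 h alone. At 1 h, sites were found at 5 of 8 members of the mTOR arm, 2 of 4 adaptors and 1 of 5 AKT targets. The AKT arm had them at 1 of 4 members, and regulatory subunits and inhibitors of PI3K at 2 of 4. At 12 h the counts were 3 in the mTOR arm, 1 among adaptors and 1 among AKT targets. The AKT arm then had 2 and the regulatory PI3K group 0. These small groups were not set against genes of like span length. Neither of the 2 ligand genes (Igf1, Igf2), none of the 6 IGF-binding protein genes (Igfbp1 to Igfbp6), neither receptor gene (Insr, Igf1r) and none of the 3 catalytic PI3K genes (Pik3ca, Pik3cb, Pik3cd) had a site within 25 kb at either time. The other members without one were Irs1, Grb14, Pik3r3, Pik3ip1, Pdpk1, Akt1, Gsk3a, Gsk3b, Foxo1, Foxo4, Tsc2, Rptor and Rictor. The untreated list held 0 peaks near any member.

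The share of members with a site, 28.9% at 1 h and 18.4% at 12 h, stood above the 17.1% and 9.33% of all protein-coding genes. Sites at both times were found for 6 members, against 8.73% of all genes. Members are long genes, however, with a median span of 63.7 kb against 17.3 kb for all genes. With all genes split by span into 5 classes of equal size, 20 of the 38 members belonged to the longest class. Weighting the share in each class by the members in it gave 9.13 genes at 1 h and 5.12 at 12 h, or 24.0% and 13.5%. The counts of 11 and 7 were a little above these values, and no test of the remaining difference was made. In the longest class itself 7 of 20 members had a 1 h site (31.9% of all genes of that length) and 5 had a 12 h site (18.5%).

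**Figure D1:**
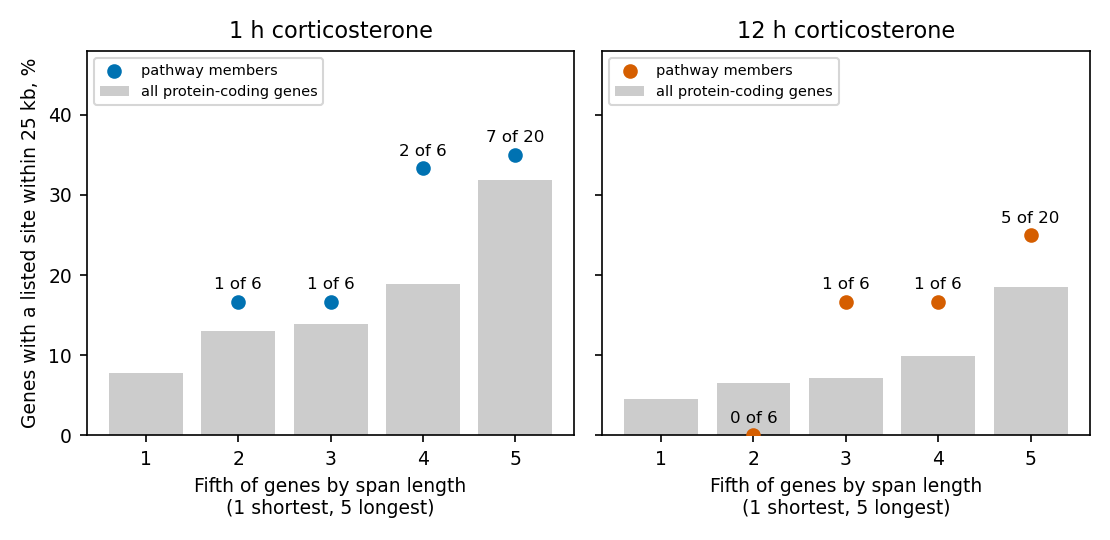
Share of genes with a listed site within 25 kb (vertical axis, percent) in each of 5 equal classes of genes by span length (horizontal axis, shortest to longest), at 1 h and at 12 h. Grey bars are all protein-coding genes and points are the pathway members with their counts; the 7 of 20 and 5 of 20 members in the longest class lie above bars of 31.9% and 18.5%, and no member is in the shortest class.

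Some members had several sites each, in a member list made with earlier results of these data known. Phlpp1, Sesn1, Foxo3, Deptor and Mtor each had 3 or more sites at 1 h, whereas 1.67% of all protein-coding genes did. These 5 are all in the longest class of genes, where the share was 5.87%. Together the 11 genes held 23 sites at 1 h, and 7 genes held 16 at 12 h. At 1 h 16 of the 23 sites lay inside the gene, and at 12 h 11 of the 16. Over all pairs of a gene and a site, 45.9% were inside at 1 h and 45.3% at 12 h. In the longest class 15 of 19 member sites at 1 h were inside the span, against 74.2% for all genes of that length. No such share by length is given for 12 h.

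None of the 23 sites at 1 h or the 16 at 12 h overlapped a promoter window, which runs from 250 bases before to 50 after a RefSeq start; of all peaks, 1.6% at 1 h and 1.73% at 12 h did, so a count of 0 was near the share of all peaks. Promoter windows were listed for 35 members, without Deptor, Foxo4 and Insr. For each of the 3 genes with a start less than 5 kb from one of its own sites, the start nearest to a site is shown, as the 250 bases before it (RefSeq, GRCm38.p6, plus strand), with CG dinucleotides in capitals. The Sesn1 sequence belongs to a start within the gene (chr10:41887189-41887438) and has a 1 h site centred 2.31 kb after it. The Akt2 sequence also belongs to an internal start (chr7:27607086-27607335), 0.479 kb before the centre of the 12 h site. The Phlpp1 sequence ends just before the first base of the gene (chr1:106171619-106171868) and lies 3.70 kb after a 12 h site.
Sesn1: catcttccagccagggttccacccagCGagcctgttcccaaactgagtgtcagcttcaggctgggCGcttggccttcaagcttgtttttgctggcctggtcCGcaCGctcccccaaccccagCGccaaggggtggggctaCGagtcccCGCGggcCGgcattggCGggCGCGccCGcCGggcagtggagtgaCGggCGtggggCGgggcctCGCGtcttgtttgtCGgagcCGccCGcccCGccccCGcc
Akt2: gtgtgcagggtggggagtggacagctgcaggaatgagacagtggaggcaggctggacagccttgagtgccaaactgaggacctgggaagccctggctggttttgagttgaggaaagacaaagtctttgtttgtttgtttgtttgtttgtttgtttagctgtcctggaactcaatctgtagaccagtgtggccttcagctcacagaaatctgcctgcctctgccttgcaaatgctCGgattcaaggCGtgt
Phlpp1: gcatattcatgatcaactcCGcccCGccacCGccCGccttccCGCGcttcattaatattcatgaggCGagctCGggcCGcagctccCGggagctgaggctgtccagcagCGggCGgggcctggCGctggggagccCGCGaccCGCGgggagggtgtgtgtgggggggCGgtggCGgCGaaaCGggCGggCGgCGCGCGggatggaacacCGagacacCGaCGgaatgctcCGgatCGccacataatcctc

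The Sesn1 and Phlpp1 stretches hold 24 and 31 CG dinucleotides and the Akt2 stretch 2, against a median of 6 over all listed windows. The 51 member windows were searched on both strands for the full glucocorticoid response element, which is the hexamer AGAACA and its reverse complement TGTTCT spaced by 3 bases. It was in 0 of them and in 0.00913% of all windows. The hexamer in either direction was in 3 member windows, or 5.88% (at Igf2, Igfbp2 and Pik3cd), and in 6233 of all 32851 (18.97%). The looser core ACANNNTGT, which the full element contains, was in 0 and in 6.85%. The FOXO site GTAAACA was in 3.92% (at Akt1 and at the first start of Sesn1) and in 3.65%. Member windows were richer in G and C, with a median of 63% against 52.7%, and the part of base composition in these shares was not tested. The genome sequence under the sites themselves was not used here.

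Tags are given as the deposited normalised count, scaled to a library of 10000000 tags. Peak windows were 282 bp wide at 1 h and 302 bp at 12 h. The untreated library was the control for both treated lists, and a site had to stand at least 6-fold over it. Raw tags of this library are printed beside some of the sites only. At the 23 member sites of the 1 h list it held between 3 and 26 raw tags with a median of 11, equal to the median of 11 over all 1 h sites.

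**Figure D2:**
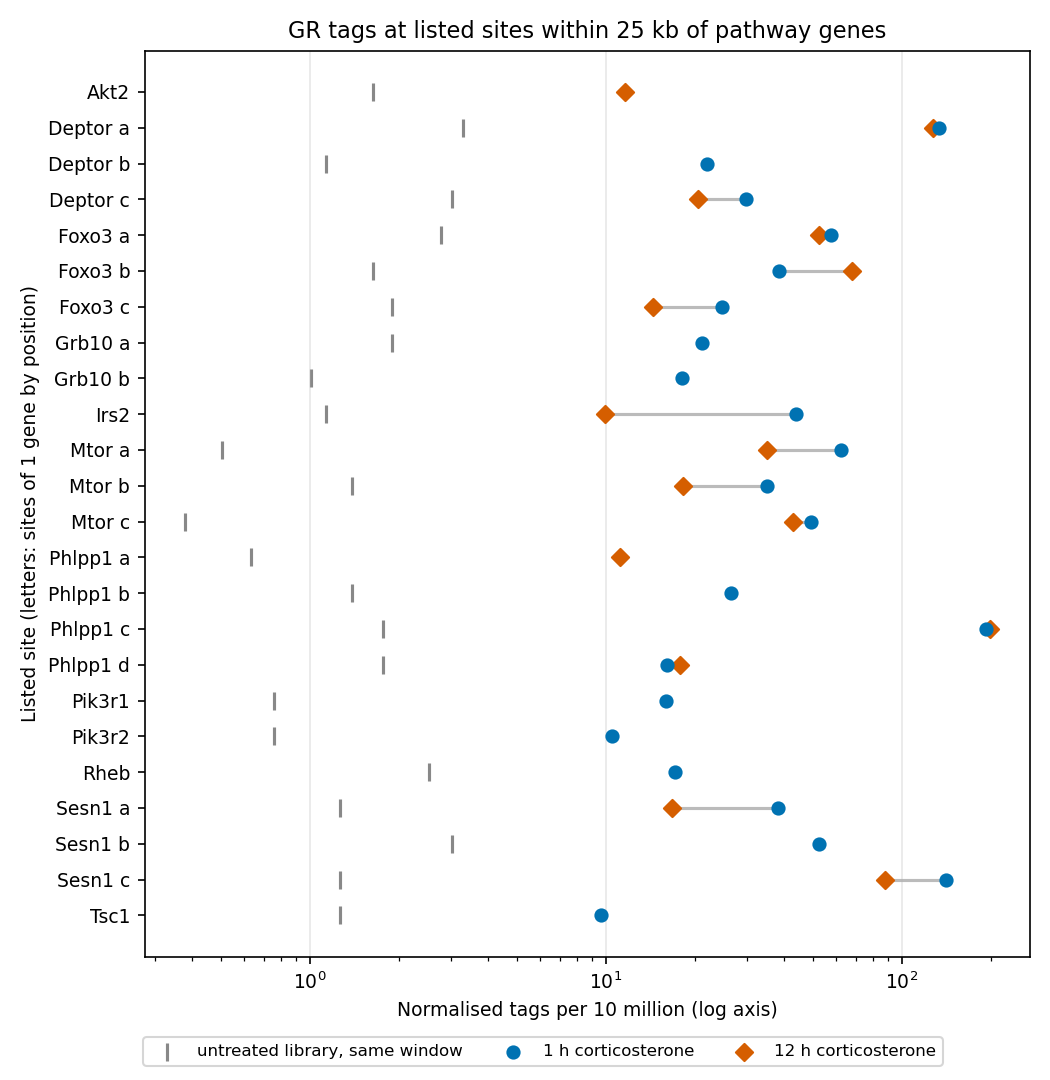
Normalised tags (horizontal log axis) at each listed site within 25 kb of a member, with sites of 1 gene lettered in chromosomal order and 1 site not drawn. Circles are the 1 h library, diamonds the 12 h library and grey ticks the untreated library in the same window; a missing circle or diamond is a site not listed at that time, and every listed value lies to the right of its tick, as the caller required.

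In the AKT arm, Phlpp1 carried the site with most tags of all member sites. PHLPP1 is a phosphatase that switches AKT off. The site lies inside the gene, 212 kb from its first base (chr1:106383246-106383528), with 192.5 tags at 1 h, 198.1 at 12 h and 14 raw tags in the untreated library. It ranked 57 of 5638 peaks by tags at 1 h and 15 of 2883 at 12 h. On the log2 scale, 12 h stood at 0.04 relative to 1 h (95% counting interval -0.05 to 0.14), so the libraries did not differ there beyond counting error. A site 6.81 kb beyond the gene (chr1:106400915-106401197) held 16.1 and 17.8 tags, a ratio also within counting error (0.14, -0.18 to 0.47). The third 1 h site, inside the gene at chr1:106317007-106317289, held 26.5 tags and was not listed at 12 h. Upstream of the gene, a site of 11.2 tags (chr1:106168020-106168322) was listed at 12 h alone.

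Akt2 encodes the AKT isoform that insulin uses to move glucose transporters to the cell surface. Its single site (chr7:27607664-27607966) was listed at 12 h alone, with 11.6 tags at 7.04-fold over the 13 raw tags of the untreated library and 6.43-fold over the local region, both close to the minimum of 6. A window with those untreated tags needs 9.85 normalised tags to reach that fold, so up to that many at 1 h would have left it unlisted. Phlpp1 and Akt2 were the only members with a site in the 12 h list alone. The Phlpp1 site stood 17.7-fold over 5 raw untreated tags and 7.2-fold over the local region. At 1 h, 3.79 tags there would have met the fold over untreated cells, but the caller's other minimums also apply. A 1 h value is in the list for neither site, so for neither gene does this show a gain of binding.

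Among AKT targets, Foxo3 had 3 sites at both times that went different ways. FOXO3 is a transcription factor that AKT keeps in the cytoplasm, and it drives stress resistance and protein breakdown genes. The site 25.2 kb into the gene (chr10:42251324-42251606) held 38.4 tags at 1 h and 68.1 at 12 h, against 13 raw tags untreated, which is a log2 ratio of 0.83 (0.64 to 1.02). Of all 2436 shared sites 97.9% had a lower ratio. The site 45.2 kb into the gene (chr10:42231330-42231612) held 57.6 and 52.5 tags (-0.14, -0.31 to 0.04). The site 17.3 kb upstream of the gene (chr10:42293861-42294143) held 24.8 and 14.5 (-0.77, -1.09 to -0.46). Afg1l lies 18.6 kb from this upstream site, and 35.1% of all shared sites had a lower ratio. The counting intervals of the first and the last site do not overlap. Thus 1 site inside the gene held more tags in the 12 h library and the upstream site held fewer. The other site inside the gene did not differ beyond counting error.

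In the mTOR arm, Mtor itself had 3 sites inside the gene, each listed at both times. MTOR is the kinase at the core of both mTOR complexes. The site 59.1 kb from the start of the gene (chr4:148507577-148507859) held 62.6 and 35.2 tags (-0.83, -1.03 to -0.64). The next, 64.5 kb from the start, held 35.1 and 18.3 (-0.94, -1.21 to -0.67), and the one at 78.6 kb (chr4:148527056-148527338) held 49.3 and 43.0 (-0.20, -0.39 to -0.00142). The untreated library had 4, 11 and 3 raw tags in the 1 h windows of these 3, so that 1 h stood 124, 25.3 and 130-fold over it. Angptl7, an angiopoietin-like gene, lies 7.26 and 12.6 kb from the first and second of them. All 3 sites were lower in the 12 h library, although the one at 78.6 kb was higher (0.30) when ratios were centred on the median of all shared sites.

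Sesn1 encodes a stress-inducible sestrin that restrains mTOR complex 1, and its 3 sites were all inside the gene. The strongest (chr10:41893653-41893935) held 140.9 tags at 1 h and 87.7 at 12 h, with 10 raw tags untreated in the 1 h window, a log2 ratio of -0.68 (-0.81 to -0.56). It ranked 110 in the 1 h list. The site 55.8 kb into the gene (chr10:41866238-41866520) held 38.3 and 16.8 tags (-1.19, -1.47 to -0.92), 0.438 times the 1 h level. The site next to the internal start (chr10:41889608-41889890) held 52.7 tags at 1 h and was not listed at 12 h, the most tags of any member site missing there. It stood 6.45-fold over its local region, just above the minimum of 6, with the strongest Sesn1 site nearby. A value for it at 12 h is not in the list, so a loss of binding cannot be read from its absence.

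Deptor encodes an inhibitor that binds mTOR in both complexes. Its leading site (chr15:55132359-55132641) held 134.2 tags at 1 h and 127.2 at 12 h, with 26 raw tags untreated, and the libraries did not differ beyond counting error (-0.08, -0.19 to 0.04). It ranked 121 at 1 h and 57 at 12 h. A second pair of peaks (1 h at chr15:55256121-55256403, 12 h starting at 55255890) held 29.7 and 20.5 tags (-0.54, -0.81 to -0.27), but their centres lay more than 100 bp apart and they may not mark 1 position. A site of 22.0 tags between them was listed at 1 h alone. Tsc1, whose product forms with TSC2 the brake on RHEB, had 9.61 tags 8.25 kb upstream of the gene (chr2:28632605-28632887), the fewest of all member sites. Rheb, the small GTPase that activates mTOR complex 1, had 17.1 tags inside the gene (chr5:24827168-24827450) at 6.78-fold over 20 raw untreated tags. Neither was listed at 12 h, where 7.58 and 15.2 tags would have met the required fold against untreated cells. The caller's tag threshold and local fold also apply.

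**Figure D3:**
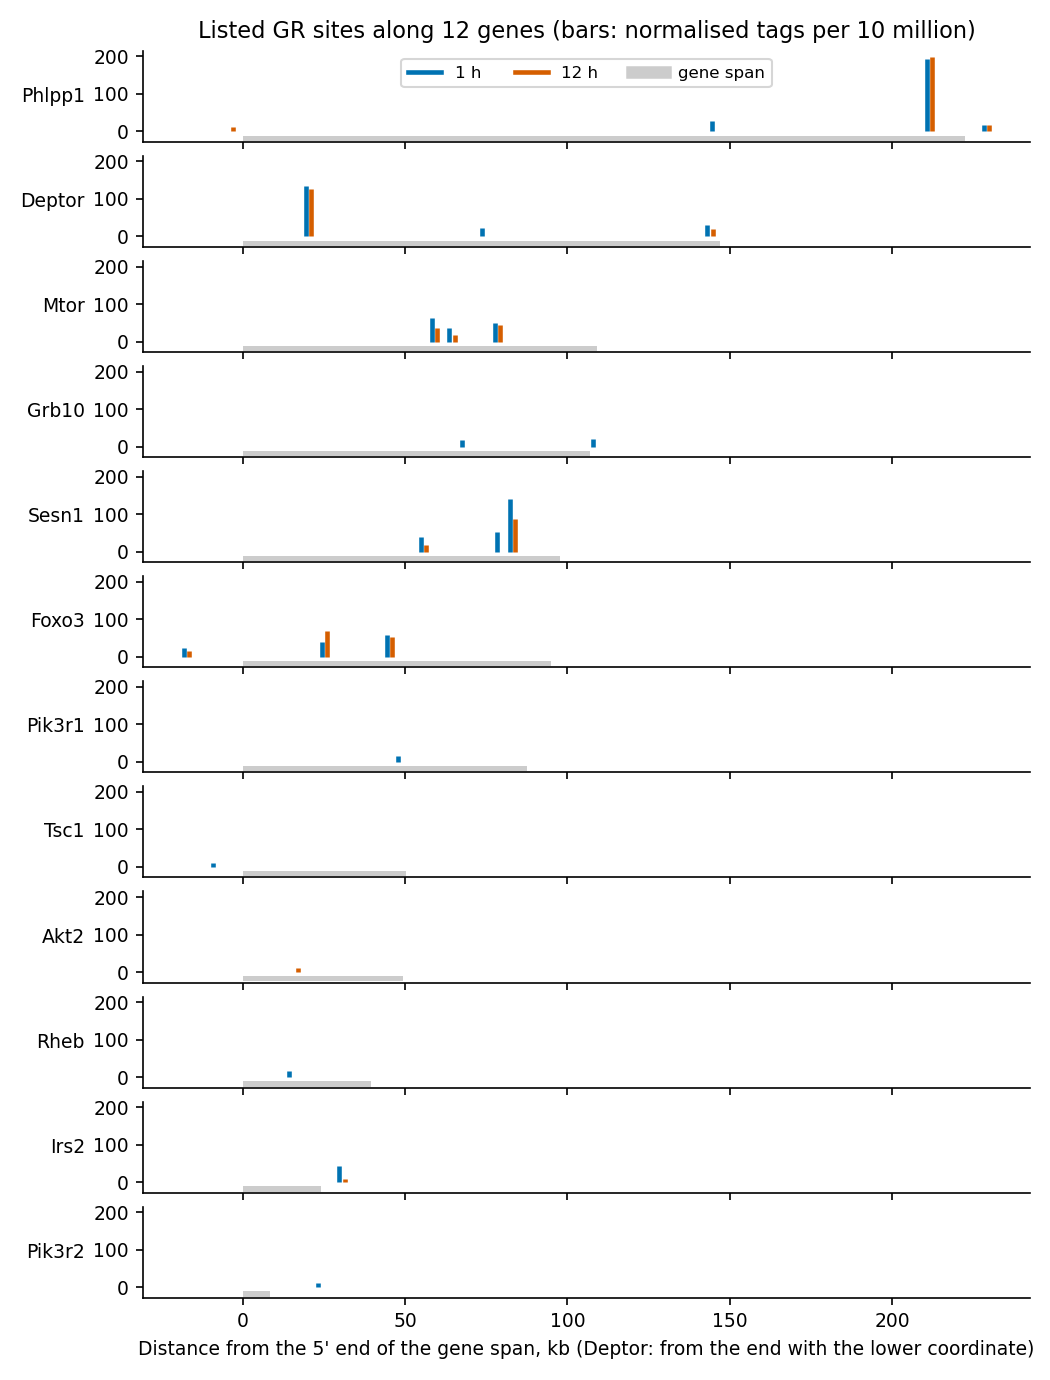
Sites along the 12 members that had any (1 site is not drawn), with distance from the 5' end of the gene span on the horizontal axis (kb; for Deptor from the end with the lower coordinate) and normalised tags on the vertical axes. Blue bars are 1 h, orange bars 12 h and grey blocks gene spans; the tallest bars are inside Phlpp1 near its far end (192.5 and 198.1), inside Sesn1 and inside Deptor.

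Among the adaptors, Irs2 had 1 site, 6.36 kb beyond the gene (chr8:10978183-10978465). IRS2 is a docking protein that couples the insulin receptor to PI3K. Its tags numbered 44.0 at 1 h against 9.92 at 12 h, with 9 raw tags untreated at both windows. Its log2 ratio of -2.15 (-2.48 to -1.82) was lower than at all but 1.52% of shared sites. Grb10, an adaptor that binds the insulin and IGF receptors and dampens their signal, had a site of 18.1 tags inside the gene and another of 21.2 tags 1.75 kb beyond it (chr11:11928611-11928893). Neither was listed at 12 h, where 6.06 and 11.4 tags would have met that fold, although the caller's tag threshold and local fold also apply. Irs1, the related docking protein gene, had a 1 h site of 11.8 tags 25.5 kb away (12 raw tags untreated) and so fell just outside the limit. The member sites farthest from their gene but within the limit were those upstream of Foxo3, at 17.3 kb, and near Pik3r2, at 15.6 kb.

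Of the 4 genes for regulatory subunits and inhibitors of PI3K, Pik3r1 and Pik3r2 had 1 site each at 1 h and 0 at 12 h, and Pik3r3 and Pik3ip1 had 0 at both times. Pik3r1, whose product stabilises and restrains the catalytic subunit, held 16.0 tags inside the gene (chr13:101719363-101719645), with 6 raw tags untreated. Pik3r2 held 10.5 tags at a site that is nearer to Pde4c (chr8:70752397-70752679), also with 6. Either site would have met the fold over the untreated library with 4.55 tags at 12 h. The caller's other minimums also apply to them.

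Of the 23 sites at 1 h, 14 were listed at 12 h (60.9%, exact binomial interval 38.5 to 80.3%), against 43.2% of all 1 h peaks. That interval covers counting error only and treats the sites as independent, although several lie near the same gene. Member sites were stronger than most, with a median of 35.1 tags at 1 h against 18.3 for all. Weighting the shared proportion in each of 10 strength classes of the 1 h list by the member sites in it gave 14.1 sites, and the members' count was close to it. The 9 sites missing at 12 h held 9.61 to 52.7 tags at 1 h with a median of 18.1, and the 14 shared sites held 16.1 to 192.5 with a median of 46.7, so the ranges overlap.

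Of the 14 member sites listed at both times, 11 had fewer tags at 12 h and 3 had more, where 77.2% of all shared sites were lower. The counting interval lay below 0 at 9 sites, above 0 at 1 (Foxo3) and included 0 at 4. No matching share over all shared sites is given, so this split cannot be read as particular to the members. The median log2 ratio was -0.61, or 0.655-fold, beside -0.49 and 0.710-fold over all 2436 shared sites. At least 2-fold lower were 3 of the 14, against 24.5% of all shared sites. These counts include 1 site that is not described here. Relative to the median of all shared sites 8 of the 14 were lower and 6 higher. With tags taken per base of the window 12 were lower and 2 higher, again without a share over all shared sites. Sites of 1 gene share their locus and are not independent, and the intervals compare the libraries, not the conditions.

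**Figure D4:**
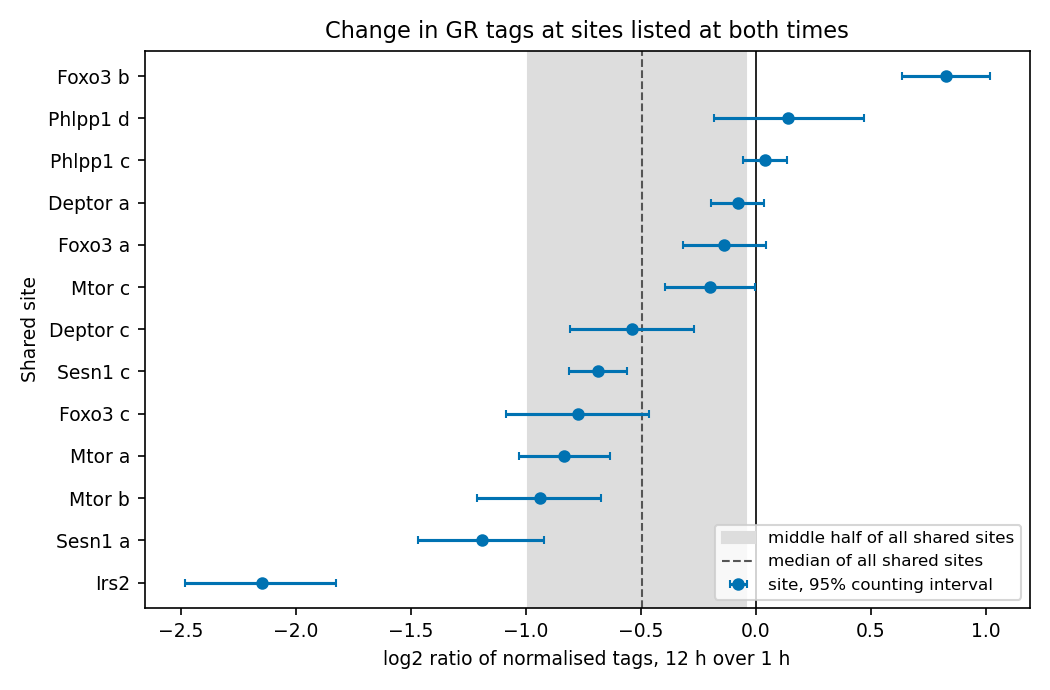
Log2 ratio of normalised tags, 12 h over 1 h (horizontal axis), at 13 of the 14 member sites listed at both times, lettered in chromosomal order. Bars are exact 95% counting intervals, the grey band runs from the lower to the upper quartile of all shared sites and the dashed line their median of -0.49; of the sites drawn, that of Irs2 lies farthest to the left at -2.15 and a Foxo3 site to the right at 0.83.

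Of 63 other genes of the pathway, a list likewise made with earlier results known, 19 had a site at 1 h (30.2%) and 10 at 12 h (15.9%), and 0 of them had sites only in the 12 h list. Of the genes with sites at both times, Tbc1d1, which encodes a Rab regulator phosphorylated by AKT, had a second 12 h peak of 15.9 tags, 3.46 kb beyond the gene, with no peak there at 1 h; it is named after its values were seen. For comparison, the share of all protein-coding genes, weighted by the span classes of these 63 genes, was 21.4% at 1 h and 11.9% at 12 h. Most tags at 1 h were near Ddit4, whose product REDD1 inhibits mTOR complex 1, with 83.7 tags at 1 h against 102.9 at 12 h, a log2 ratio of 0.30 (0.16 to 0.44); this site, at 22.5 kb, is closer to Anapc16. Pdk4, a kinase gene that spares glucose by blocking pyruvate dehydrogenase, held 74.2 and 29.2 (-1.35, -1.55 to -1.15). Sgk1, a kinase gene related to AKT, held 72.3 and 17.0 at the site with most 1 h tags, 5.12 kb beyond the span (-2.09, -2.35 to -1.84). Its site with most tags at 12 h was another, inside the gene, with 34.2. Eif4ebp2, a gene for a translation repressor that mTOR inactivates, held 65.6 and 63.3 (-0.05, -0.22 to 0.11) at a site nearer to Lrrc20.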

How the data were processed

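GR peak lists of untreated, 1 h and 12 h libraries were used, with 1 library per condition, and the input sample was not analysed here. The submitters' processing notes name mm10 as the build and list HOMER, Bowtie2 2.2.6 and bcl2fastq 2.17 as tools. Per the file headers, peaks were called in each library with HOMER findPeaks at a false discovery rate of 0.001, a tag threshold of 75 and a fold of at least 6 over control and over the local region of 10 kb. The control was the input for the untreated list and the untreated library for both others. A listed site therefore exceeds the untreated library by construction.

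The signal used is the deposited normalised tag count per 10000000 tags. The deposited fold over control and over the local region is a ratio computed by the caller, and the deposited score per peak served only for a stricter filter. The focus ratio (a fraction) and the p-value per peak, both deposited by the authors, were not used, nor was the deposited tag count of the untreated peak. Control tags are deposited unscaled. Deposited total tags, scaled to the untreated library, were scaled back, and 100% of the recovered values lay within 0.1 of a whole number.

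Gene spans and starts came from RefSeq tables of GRCm38.p6, the assembly of mm10. Peaks were paired by overlap of at least 1 bp, each with at most 1 partner. Ratios have exact (Clopper-Pearson) 95% intervals from the recovered tags, which cover counting error only. No test between conditions was possible. The tags "needed" at an unlisted site are those that meet the fold over the untreated library alone. Pairing and intervals were tested on simulated data. Python 3.11.15, pandas 2.3.3, scipy 1.17.1 and matplotlib 3.10.9 were used. Named are every member, each site of a member (up to 4), the 4 other pathway genes with most 1 h tags and any of these with a site at 12 h alone. The members, gene lists and alternatives were chosen with earlier results of these data known. A single site enters the counts but is not reported here.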

Additional observations from a re-analysis of the deposited data

How the results depend on the processing

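The distance limit moved the counts of members most. With a limit of 100 kb, sites were counted for 23 members at 1 h and 18 at 12 h. Of 49 member sites at 1 h, 29 were then listed at 12 h, against 43.2% of all 1 h peaks. Of all genes 37.9% and 22.6% then had a site, or 44.5% and 27.0% when weighted for span length, against 60.5% and 47.4% of members. With peaks at 2 or more times each minimum, 6 members had a site at 1 h (Deptor, Foxo3, Irs2, Mtor, Phlpp1 and Sesn1), or 15.8% against 7.76% of all genes and 11.3% weighted for length. At 12 h the same filter left 5 members, or 13.2% against 3.73% and 5.45%. Of the 12 member sites at 1 h that passed this filter, 11 overlapped a listed 12 h peak, against 14 of 23 without it. No share of all 1 h peaks under the filter is given. Inside the span, 8 members had a site at 1 h (7.63% of all genes, 14.9% weighted) and 6 at 12 h (4.06%, 8.28% weighted). Within 10 kb, 10 did at 1 h (11.8%, 18.8% weighted) and 7 at 12 h (6.24%, 10.3% weighted). With peaks given to the nearest gene alone the counts were 10 and 7, but no share of all genes under that rule is given to compare them with. The median log2 ratio at shared member sites ranged from -0.71 to -0.12 over its alternatives, the latter after centring on all shared sites. That centring turned the Mtor site 78.6 kb from the start from -0.20 to 0.30. It raises every ratio by the same amount, and the other 13 shared sites also moved out of their counting intervals. The leading Phlpp1 site went from 0.04 to 0.54 and the leading Deptor site from -0.08 to 0.42. The second Deptor pair went from -0.54 to -0.04. No paired analysis was possible because each condition has 1 library.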

Other observations

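Several members had listed sites between 25 and 100 kb from the gene, and those given here were chosen after their values were seen. Igf1r, the IGF receptor gene, had a site 33.2 kb beyond its end with 60.4 tags at 1 h against 65.8 at 12 h (0.12 on the log2 scale, counting interval -0.04 to 0.29), nearer to Pgpep1l. Igfbp6, which encodes a binding protein for IGF, lay 41.5 kb from a site of 186.5 and 111 tags (-0.75, -0.86 to -0.64) that overlaps the promoter window of Tns2. Igf1 had a site 88.6 kb upstream with 19.8 and 22.2 tags (0.17, -0.12 to 0.46). A site 43.5 kb upstream of Igfbp2, which is also 77.1 kb from Igfbp5, had 8.17 tags at 1 h against 12.9 at 12 h (0.66, 0.23 to 1.09), with 7 and 9 raw tags in the untreated library.

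Rptor, which encodes the scaffold of mTOR complex 1, had a site 46.0 kb away inside Baiap2 with 32.7 and 33.8 tags (0.05, -0.18 to 0.28). Gsk3a had a site 42.5 kb away inside Cic with 23.1 and 10.5 tags (-1.13, -1.49 to -0.78). Near Grb10, a site 85.9 kb away inside Ddc held 152.5 and 97.5 tags (-0.65, -0.77 to -0.53). The site with most 1 h tags within 100 kb of any member lay 57.0 kb from Pik3r2 and nearer to Arrdc2, with 213.5 and 90.3 tags (-1.24, -1.36 to -1.13).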
